A study of Homo sapiens with 12 samples.

Results

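Genes on human chromosome 14 were followed in order of position in HEL cells carrying CRISPR-Cas9 guides against KDM4C. The count table held 1264 genes of this chromosome. Of these, 375 had at least 1 CPM (a per-million count, which is a gene's count scaled to the size of its library) in at least 4 of the 12 libraries, and these 375 genes are described here. They were 2.88% of the 13004 genes of the table that met the same rule. Each gene was placed by its smallest start position on hg38, from 19062377 to 105489855, and the genes were grouped in 10 bins of 10 Mb. The genes were chosen by their CPM values over all groups. LOC100506476, DICER1-AS1, DEGS2, LINC00638 and GPR132 met the rule through knockout libraries only, being under 1 CPM in all 4 control libraries. This way of entry favours genes that are higher in the knockout, so their values are a description. The number met through control libraries only was 0. This chromosome was also picked with results of these libraries known, so its standing among chromosomes is a description. Just inside the rule, with exactly 4 libraries at 1 CPM, were LOC100506476, DICER1-AS1 and LINC00638. Just outside, with 3 libraries, were 6 genes, among them PLEKHH1 (0.475 to 1.43 CPM) and LGMN (0.332 to 1.31 CPM). A total of 100 of the 1264 genes are also listed on another contig of the assembly, and 82 of these had a count of 0 in every library. Of the 60 protein-coding genes among them 1 met the rule, against 343 of 532 protein-coding genes without such a second place. A low count of such a gene is therefore not read here as a lack of expression, and the cause was not tested.

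Chromosome 14 is an acrocentric chromosome, and the genes described here lie on its long arm. It carries genes for proteasome subunits, for the alpha subunit of translation factor eIF2 and for the stress-inducible chaperone HSP90, as well as the SERPINA cluster, the imprinted DLK1-MEG3 domain, the RNase A family and the immunoglobulin heavy chain and T cell receptor alpha loci, most of which are restricted to tissues such as liver, placenta or lymphocytes. KDM4C, which itself lies on chromosome 9, removes methyl groups from lysines 9 and 36 of histone H3. HEL is a human JAK2-mutated erythroleukemia line with erythroid and megakaryocytic features.

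All 12 libraries came from HEL cells that expressed Cas9 under blasticidin (15 µg/mL) and received a lentiviral guide with puromycin resistance, with 1.5 µg/mL puromycin within an 11 day course. The control group (genotype labelled WT) carried a guide against luciferase, which is not a human gene, and the 2 knockout groups carried the KDM4C guides sg2 and sg3. Each group had 4 libraries, all from cells kept in DMSO, the drug vehicle, before RNA isolation. The cells were divided into 4 only at that last step, so p-values measure the spread between parallel cultures of 1 transduced population per guide, and a guide cannot be told apart from its transduction.

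Total counts ranged from 10031809 to 78966125 per library. KDM4C, whose transcript is still counted after a small insertion or deletion, measured 69.4 ± 1.72 CPM (SD, n = 4) in control, 47.1 ± 6.62 in sg2 and 61.7 ± 1.86 in sg3 libraries. By edgeR it fell by 0.57 on the log2 scale with sg2 (adjusted p = 2.59e-05) and by 0.17 with sg3 (adjusted p = 0.0499). The sg3 call disappeared when a single control or sg3 library was left out (0.0527 to 0.116) or sg2 replicate 3 (0.0580). Of 14 erythroid and megakaryocytic markers, 13 reached 1 CPM, while GP1BB had a count of 0 in every library. Their summed level was 6662.5 to 7519 CPM in control, 6978 to 7918 in sg2 and 7733 to 7988.5 in sg3 libraries. Markers of T cells, B cells, monocytes and fibroblasts summed to at most 4.53 CPM in any library, and 4 epithelial markers summed to 4.13 to 4.50 CPM in control and 6.41 to 9.50 CPM in knockout libraries. As these are bulk samples, fewer cells expressing a gene and less RNA per cell cannot be told apart.

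The guides target chromosome 9, and their sequences are shown to place them against chromosome 14. Each had 1 exact match in hg38 next to an NGG motif, shown here 5′ to 3′ with that motif in capitals, at chr9:7011804-7011823 on the plus strand for sg2 and chr9:6984259-6984278 on the minus strand for sg3.
sg2 target: gcaagagtataatgcaacagTGG
sg3 target: ggtcatctgtgactgagtcgGGG
On chromosome 14, no site next to NGG matched either guide with 0, 1 or 2 mismatches. With 3 mismatches there was 1 site, for sg3, at chr14:68572991-68573010 on the plus strand in an intron of RAD51B. It is shown with the mismatched bases in capitals, which are C7A, C13T and T14G counted from the 5′ end of the guide.
sg3 site on chromosome 14: ggtcatAtgtgaTGgagtcgggg
RAD51B, a gene of homologous recombination, measured 6.99 ± 1.11 CPM in control, 6.94 ± 0.43 in sg2 and 6.91 ± 0.74 in sg3 libraries (SD, n = 4 each), so the groups overlapped. Its log2 fold change with sg3 was -0.00 ± 0.11 (SE, edgeR adjusted p = 0.979). With 4 mismatches, chromosome 14 held 2 of 102 sites for sg2, 2 of 74 for sg3 and 1 of 63 for the luciferase guide, while it makes up 3.08% of the genome searched. A sequence match does not show that a site was cut.

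The level of chromosome 14 genes was lower in every knockout library. These 375 genes took 2.40% ± 0.00465 of all counts in control (SD, n = 4), 2.20% ± 0.0257 in sg2 and 2.16% ± 0.0120 in sg3 libraries. For each gene, log2 CPM minus its mean over the control libraries was then taken in each library. The median over the 375 genes was 0.01, -0.00, -0.00 and 0.01 in control libraries 1 to 4. In sg2 libraries 1 to 4 it was -0.08, -0.09, -0.10 and -0.12, and in sg3 libraries 1 to 4 it was -0.11, -0.11, -0.12 and -0.14. All 8 knockout libraries lay below the 4 control libraries. Over all 13996 genes tested, the same medians stayed between -0.01 and 0.00 in every library.

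In fitted values, the median log2 fold change of the 375 genes was -0.10 with sg2, -0.13 with sg3 and -0.12 for the average of both guides, which corresponds to 92.2% of the control level at the median. Over all genes tested these medians were -0.00, -0.01 and -0.00. For the average, the middle 50% of chromosome 14 genes lay between -0.24 and 0.05, against -0.15 to 0.16 over all genes tested. Both ends of this middle part were thus lower, which does not describe the tails. Among chromosomes 1 to 22 and X, chromosome 14 had the lowest median in each of these comparisons. Chromosome 9 followed with -0.09 for the average (518 genes) and chromosome 16 with -0.06 (586 genes), while chromosome 12 had the highest median, 0.06 (703 genes). This order was not tested. The 2 guides were compared with the same control libraries, so their values are not independent of each other.

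**Figure D1:**
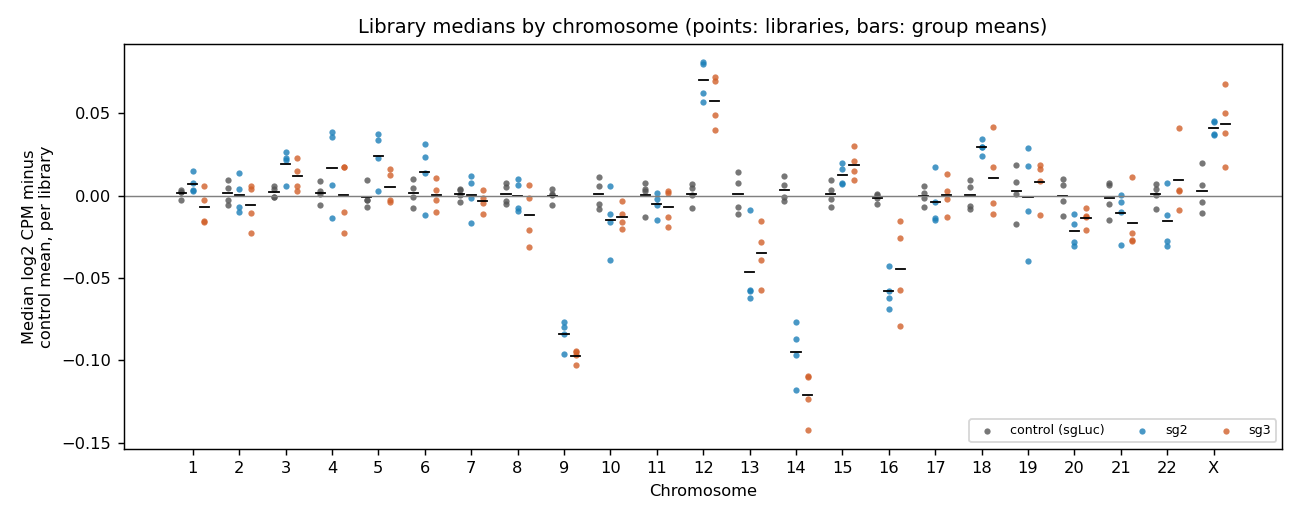
Median over genes of log2 CPM minus the control mean (y axis, log2 units) for each of 12 libraries on chromosomes 1 to 22 and X (x axis). Points are libraries coloured by group and bars are means of 4 libraries. On chromosome 14 the 8 knockout libraries lay between -0.14 and -0.08 and all 4 control libraries within 0.02 of 0.

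With sg2, 119 of the 375 genes fell and 30 rose (edgeR quasi-likelihood test, adjusted p under 0.05 over all genes tested). Over all genes tested, 28.3% were called, as 13.9% fell and 14.5% rose. With sg3, 164 genes fell and 56 rose, beside 22.2% and 21.9% of all genes tested (44.1% together). For the average of both guides, 168 genes fell and 51 rose, beside 22.3% and 21.6% (43.9% together). As shares of chromosome 14 genes, 44.8% fell and 13.6% rose in the average, so falls were more frequent and rises less frequent than over all genes tested. A total of 144 genes were called in all 3 of these comparisons (38.4%, against 25.5% of all genes tested), of which 114 fell and 30 rose. As shares these were 30.4% and 8.0%, beside 12.3% and 13.2% of all genes tested. In 99 of the 375 genes every knockout library lay below every control library, against 11.3% of all genes tested, and in 27 genes every knockout library lay above, against 12% of all. Most changes were small. The median change was -0.24 among the 168 genes that fell and 0.31 among the 51 that rose, and only 10 falls and 12 rises reached 0.5 on the log2 scale. These rises include LOC100506476, DICER1-AS1, DEGS2 and GPR132 (0.68 to 1.32), which met the CPM rule through knockout libraries only.

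Every position bin with at least 10 genes had a median below 0 in the average. Of 281 bins of the same width and at least 10 genes on other chromosomes, 48.4% had a median below 0, and the range from their 5th to their 95th percentile was -0.11 to 0.11. The 9 chromosome 14 bins ranged from -0.06 (20 to 30 Mb) to -0.19 (40 to 50 Mb). The latter bin was the lowest of all 290 such bins, and the bins of 70 to 80, 90 to 100 and 30 to 40 Mb took ranks 4, 6 and 8 from the bottom. Ranks 2 and 3 were bins of chromosome 9 (130 to 140 Mb with -0.18 and 60 to 70 Mb with -0.17). From 60 Mb on, the bins of chromosome 9 ranged from -0.06 to -0.18, much like chromosome 14. Its bins before 40 Mb ranged from -0.00 to 0.10. Still, 50 of the 281 bins on other chromosomes lay below the highest chromosome 14 bin. These medians rest on 14 to 70 genes a bin and were not tested. In the same bins 39.2% to 55.2% of genes fell and 2.7% to 28.6% rose in the average. The counts per bin below stand beside 44.8% and 13.6% for all 375 genes, and 22.3% and 21.6% of all genes tested.

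In 7 bins all 8 knockout libraries lay below all 4 control libraries at the median. In the bin of 20 to 30 Mb, sg3 library 3 (-0.00) lay within the control range (-0.01 to 0.01). In the bin of 80 to 90 Mb, sg2 library 1 (0.01) lay within the control range (-0.00 to 0.02). The first bin, 10 to 20 Mb, holds only 3 genes, and its control libraries alone spread from -0.16 to 0.23. The bins also differed in base composition, which the rule did not use. GC content was lowest in the bin of 40 to 50 Mb (35.9%), which had the lowest median among bins with at least 10 genes, and highest at 100 to 110 Mb (49.3%), where the median was -0.11. In the other bins with at least 10 genes, GC content in rising order was 37.9, 39.0, 39.6, 40.0, 41.0, 43.2 and 44.7%. Their medians in the average, in the same order, were -0.06, -0.15, -0.06, -0.11, -0.07, -0.16 and -0.16. The part of GC content in these medians was not tested.

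**Figure D2:**
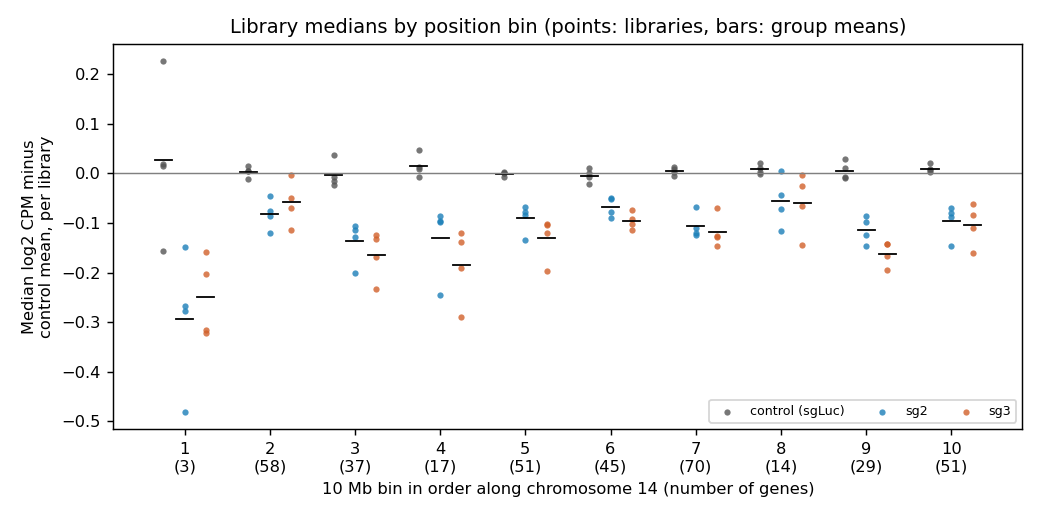
Median over genes of log2 CPM minus the control mean (y axis, log2 units) in each library for the 10 bins of 10 Mb in order along chromosome 14 (x axis, number of genes in brackets). Points are libraries and bars are means of 4 libraries. Knockout libraries lay below control libraries in 7 bins, with 1 knockout library inside the control range in each of the other 3.

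The first bin was made of the pseudogenes DUXAP9 and DUXAP10 and 1 further transcript. DUXAP9 fell (-0.28, adjusted p = 0.00378) and so did DUXAP10 (-0.33, adjusted p = 0.00238), both in the average of the guides. DUXAP9 and DUXAP10 are closely related copies of one another, and how their reads were divided is uncertain. From 20 to 30 Mb, 23 of 58 genes fell and 10 rose, and a further 42 genes of this bin that are also listed on another contig did not meet the CPM rule. There LINC00641, a long noncoding RNA, fell from 12.8 ± 0.79 CPM in control to 10.1 ± 0.74 in sg2 and 9.34 ± 0.93 in sg3 libraries. JPH4, a junctophilin that ties the endoplasmic reticulum to the plasma membrane, rose from 6.29 ± 1.003 to 8.84 ± 1.13 and 10.6 ± 0.17 CPM. The uncharacterised transcript LOC105370401 rose from 1.25 ± 0.23 CPM to 2.25 ± 0.38 and 2.53 ± 0.81. The largest fitted fall on the chromosome was that of RPPH1, the RNA of ribonuclease P, with -1.42 (adjusted p = 0.0119). Its control libraries measured 10.6, 71.6, 16.03 and 57.3 CPM, a range that held 4 of the 8 knockout values (5.68 to 32.8 CPM), the other 4 being lower. The call was lost without control replicate 2, where the value was -0.84 (adjusted p = 0.152). RPPH1 also overlaps PARP2 and was chosen for mention after its values were seen.

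Between 30 and 40 Mb, 19 of 37 genes fell and only NFKBIA rose. The largest fall was that of COCH, which encodes cochlin, an extracellular protein best known from the inner ear. COCH measured 45.7, 42.0, 44.2 and 43.3 CPM in control libraries 1 to 4. It measured 22.1, 25.2, 27.6 and 24.9 CPM in sg2 and 24.6, 25.4, 26.0 and 29.1 CPM in sg3 libraries, so no knockout library came near a control library. Its log2 fold change was -0.81 ± 0.06 with sg2 and -0.74 ± 0.06 with sg3 (adjusted p = 8.71e-07 and 3.82e-07), and -0.74 to -0.80 in the average under every alternative processing. From 40 to 50 Mb, 9 of 17 genes fell and 1 rose. Here PRPF39, a splicing factor of the U1 snRNP, fell from 36.7 ± 0.98 CPM to 30.1 ± 1.01 in sg2 and 30.4 ± 1.003 in sg3 libraries, and POLE2, a subunit of DNA polymerase epsilon, from 28.2 ± 0.32 to 24.4 ± 1.75 and 20.3 ± 2.10 CPM. For POLE2 the sg2 call (-0.21, adjusted p = 0.0326) was lost without any 1 of control replicates 1, 2 and 4 or of sg2 replicates 2, 3 and 4 (adjusted p from 0.0582 to 0.103). For PRPF39, reads of the overlapping genes FKBP3 and SNORD127 cannot be fully separated.

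In the bin of 50 to 60 Mb, 25 of 51 genes fell and 7 rose. GMFB, a glia maturation factor that regulates branched actin, measured 74.2, 67.7, 75.1 and 74.9 CPM in control, 52.2, 56.6, 47.3 and 48.0 in sg2 and 48.6, 49.1, 50.8 and 41.8 in sg3 libraries. All 8 knockout libraries were below the lowest control library (-0.55 ± 0.05 in the average, adjusted p = 1.17e-06). GPR135, an orphan G protein-coupled receptor, measured 4.52 ± 0.33 CPM in control, 3.49 ± 0.73 in sg2 and 2.89 ± 0.31 in sg3 libraries, and its fall in the average was -0.53 (adjusted p = 0.00118). By contrast PELI2, a Pellino ubiquitin ligase of Toll-like receptor signalling, rose by 0.31 (adjusted p = 7.88e-05), from 32.5 ± 1.74 CPM to 42.1 ± 2.98 and 38.8 ± 1.20. From 60 to 70 Mb, 18 of 45 genes fell and 3 rose. ZFYVE26, a protein of autophagic lysosome reformation, fell by 0.33 (adjusted p = 0.000123), and ZFP36L1, which directs decay of AU-rich mRNAs, rose by 0.21 (adjusted p = 0.00246).

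The bin of 70 to 80 Mb held the most genes, of which 30 of 70 fell and 13 rose. RIOX1, a ribosomal oxygenase that hydroxylates a ribosomal protein, measured 29.0, 29.1, 29.8 and 28.2 CPM in control libraries. It measured 21.9, 23.4, 19.3 and 17.8 in sg2 and 16.6, 18.7, 17.3 and 18.1 in sg3 libraries, again without overlap (-0.60 ± 0.06 in the average, adjusted p = 2.12e-06). SLC8A3, a sodium-calcium exchanger, moved the other way. Its control libraries measured 12.3, 13.0, 12.5 and 14.6 CPM, against 21.2, 19.3, 23.2 and 20.9 in sg2 and 21.6, 21.8, 22.96 and 22.8 in sg3 libraries. Every knockout library exceeded every control library (0.73 ± 0.06, adjusted p = 3.40e-07). From 80 to 90 Mb, 6 of 14 genes fell and 4 rose. CEP128, a centriole protein, fell by 0.31 (adjusted p = 0.00131) and the microtubule-associated EML5 by 0.36 (adjusted p = 0.00372), while the forkhead repressor FOXN3 rose by 0.29 (adjusted p = 2.77e-05). The most abundant gene of this bin, the endocytic adaptor STON2, measured 422 ± 49.4 CPM in control, 401 ± 18.5 in sg2 and 379 ± 16.7 in sg3 libraries and was not called (adjusted p = 0.102). EML5 overlaps ZC3H14, which had 6.2 times its counts, so its value is uncertain.

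Towards the end of the long arm, 16 of 29 genes fell and 4 rose from 90 to 100 Mb. SYNE3, a nesprin of the nuclear envelope, rose from 49.3 ± 2.53 CPM in control to 67.6 ± 7.20 in sg2 and 66.1 ± 6.34 in sg3 libraries (0.43 ± 0.07, adjusted p = 6.49e-05). In the last bin, 100 to 110 Mb, 20 of 51 genes fell and 8 rose. BTBD6, an adaptor of the cullin-3 ubiquitin ligase, measured 13.5, 14.3, 14.6 and 13.4 CPM in control, 10.6, 9.44, 7.37 and 10.5 in sg2 and 8.17, 8.74, 8.27 and 8.49 in sg3 libraries. The groups were separate (-0.64 ± 0.07, adjusted p = 5.67e-06), though BTBD6 overlaps BRF1, which had 2.4 times its counts. GPR132, a G protein-coupled receptor of immune cells, was 1 of the 5 genes that met the CPM rule through knockout libraries only. It measured 0.484, 0.735, 0.816 and 0.601 CPM in control, 1.65, 0.978, 1.40 and 1.799 in sg2 and 2.21, 1.66, 2.34 and 2.01 in sg3 libraries (1.32 ± 0.21, adjusted p = 0.000106). Because of how it met the rule, the rise of GPR132 is a description. PLD4, an endolysosomal nuclease of the phospholipase D family, rose by 0.57 (adjusted p = 0.00338).

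**Figure D3:**
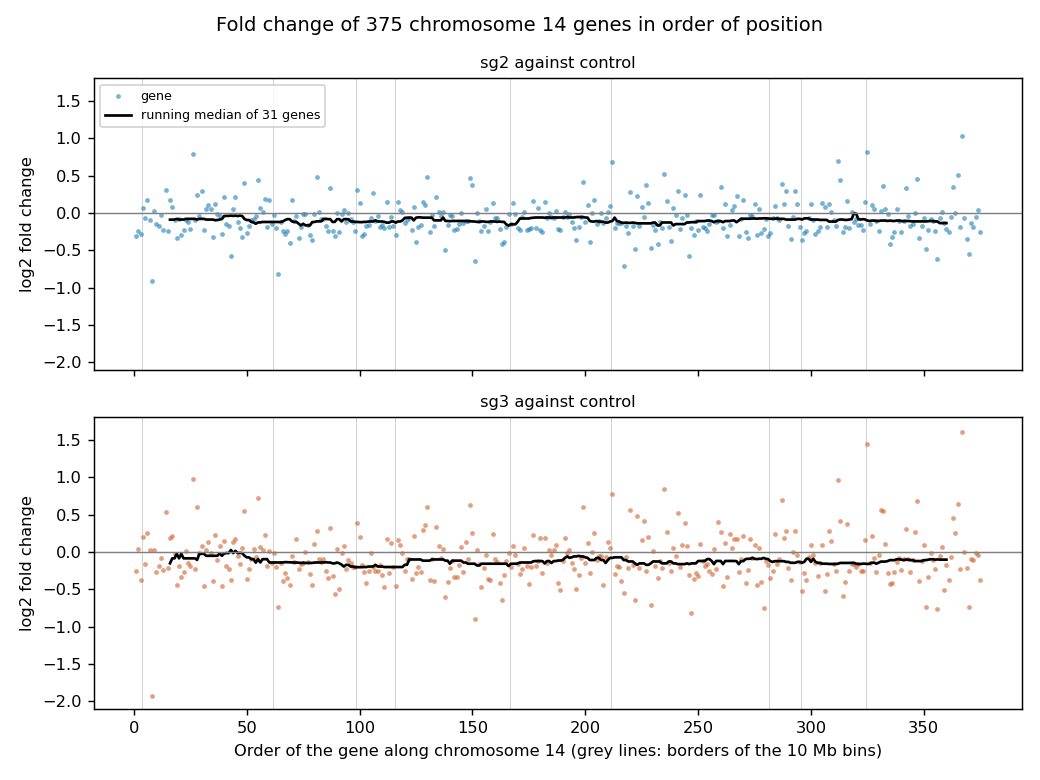
Log2 fold change against control (y axis) of the 375 genes in order along chromosome 14 (x axis, rank of the gene) for sg2 (top) and sg3 (bottom). Points are genes, the black line is a running median of 31 genes and grey lines separate the 10 Mb bins. The medians over all 375 genes were -0.10 and -0.13, and points of either sign are mixed along the whole order.

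Genes that fell were mixed with genes that rose at the scale of single genes. For the 374 pairs of neighbours in position order, the correlation of log2 fold changes in the average was 0.04 across genes, which are not independent replicates, and 210 pairs shared a sign. The longest uninterrupted stretch with 1 sign had 9 genes below 0 from STXBP6 to DTD2 (chr14:24809654-31457506), and 8 of these fell. This stretch includes COCH. A further 4 stretches had 8 genes below 0. As 256 of the 375 genes (68.3%) were below 0 in the average, shared signs and such stretches arise in any order of the genes. Whether these were longer than in another order was not tested.

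A total of 173 of the 375 genes were on 1 of 11 lists of chromosome 14 genes by function. Counts in the lists stand beside 44.8% lower and 13.6% higher among all 375 genes in the average. Over all genes tested these shares were 22.3% and 21.6%. The proteasome, which degrades ubiquitin-tagged proteins, was represented by 5 of 8 listed genes, and all 5 fell with either guide. PSME1 and PSME2, which are also listed on another contig, and PSMB11 did not meet the CPM rule. Their median was -0.32 in the average, beside -0.12 for the chromosome and -0.00 for all genes tested. PSMC1, an ATPase of the regulatory particle, measured 162, 149, 174 and 150 CPM in control, 125, 126, 122 and 119 in sg2 and 119, 116, 112 and 93.1 in sg3 libraries. PSMB5, the catalytic subunit with chymotrypsin-like activity, measured 89.8, 86.3, 94.3 and 83.4 CPM in control, 74.4, 73.4, 72.6 and 71.5 in sg2 and 68.5, 68.7, 59.0 and 63.0 in sg3 libraries. For both genes every knockout library was below every control library, and the falls in the average were -0.45 ± 0.05 for PSMC1 and -0.36 ± 0.04 for PSMB5 (adjusted p = 8.34e-06 and 6.77e-06). PSMC6, a second ATPase, fell by 0.32, and the alpha ring subunits PSMA3 and PSMA6 fell by 0.30 and 0.29 (adjusted p = 6.15e-05, 0.000218 and 0.000350). The 5 genes lie in 4 different bins, from 20 to 100 Mb.

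Of 22 genes of translation and RNA processing, 16 (72.7%) fell and 0 rose in the average, with a median of -0.19. With sg3 the counts were the same, and with sg2 11 (50.0%) fell and 0 rose. EIF2S1, the alpha subunit of initiation factor eIF2, measured 161, 159, 165 and 154 CPM in control, 131, 130, 117 and 116 in sg2 and 118, 114, 116 and 102 in sg3 libraries. Its groups did not overlap (-0.43 ± 0.04, adjusted p = 1.42e-06). TRMT61A, the catalytic subunit of a tRNA adenine methyltransferase, measured 30.9, 34.2, 32.9 and 31.9 CPM in control, 25.1, 22.5, 21.4 and 23.9 in sg2 and 16.8, 19.6, 21.1 and 20.7 in sg3 libraries. It too fell without overlap (-0.61 ± 0.06, adjusted p = 1.07e-06). In their bins the kinesin-binding KTN1 (-0.11, adjusted p = 0.00935) and the poly(A) polymerase PAPOLA (-0.14, adjusted p = 0.00220) were the most abundant genes, and both fell slightly in the average. The sg3 call of KTN1 was lost without any 1 sg3 library or any 1 of control replicates 1, 2 and 4. With sg2, the calls of KTN1 and PAPOLA were each lost without control replicate 2 or 4 or sg2 replicate 3 or 4, among others. PNN, a nuclear speckle protein at 338 ± 9.05 CPM in control, had the highest level of the list and fell by 0.12 (adjusted p = 0.00750), a call lost without control replicate 1 (-0.09, adjusted p = 0.0580). The ribosomal protein RPS29, of which the genome holds many processed copies, measured 170 ± 58.4 CPM in control, 206 ± 17.8 in sg2 and 148 ± 82.9 in sg3 libraries, and its spread between libraries allowed no statement (adjusted p = 0.939).

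Of 43 genes of DNA repair, replication and chromatin, 25 (58.1%) fell and 3 (6.98%) rose in the average, with a median of -0.16. BAZ1A, the large subunit of the ACF chromatin remodeler, measured 211, 213, 202 and 208 CPM in control, 167, 171, 159 and 151 in sg2 and 154, 156, 152 and 152 in sg3 libraries. No knockout library reached a control library (-0.40 ± 0.03, adjusted p = 2.89e-07). BRMS1L, a component of SIN3-histone deacetylase complexes, fell from 14.1 ± 0.88 CPM to 11.3 ± 1.16 in sg2 and 9.44 ± 1.15 in sg3 libraries (-0.43 ± 0.08, adjusted p = 0.000340). The most abundant gene of the list, HNRNPC, which binds nascent transcripts, measured 822 ± 22.7, 778 ± 19.3 and 720 ± 69.4 CPM in control, sg2 and sg3 libraries. Its fall in the average (-0.14, adjusted p = 0.0265) was lost without any 1 of control replicates 1, 2 and 3, sg2 replicate 3 or sg3 replicate 3 (adjusted p from 0.0540 to 0.0816).

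Among 24 signalling and stress regulators, 12 fell and 6 rose in the average (median -0.12). The gene with the highest level on the chromosome was HSP90AA1, the inducible cytosolic HSP90. It measured 2281, 2174, 2321 and 2099 CPM in control, 1874, 1929, 1665 and 1596 in sg2 and 1708, 1653, 1667 and 1629 in sg3 libraries, all knockout values being lower than all control values (-0.37 ± 0.05, adjusted p = 8.15e-06). MAP3K9, a mixed lineage kinase, fell by 0.63 (adjusted p = 0.00145) from 4.91 ± 0.61 CPM to 3.09 ± 0.87 in sg2 and 3.41 ± 0.71 in sg3 libraries. TNFAIP2, a gene induced by tumor necrosis factor, measured 57.4, 56.9, 57.2 and 61.1 CPM in control, 68.9, 70.6, 94.6 and 86.3 in sg2 and 94.0, 90.3, 93.5 and 95.5 in sg3 libraries. It rose in every knockout library (0.57 ± 0.07, adjusted p = 5.30e-06), with sg2 libraries 1 and 2 nearest to the controls. NFKBIA, the inhibitor of NF-kappaB, measured 17.2, 18.4, 20.98 and 16.7 CPM in control, 22.8, 21.5, 23.02 and 25.6 in sg2 and 22.4, 24.7, 23.7 and 20.5 in sg3 libraries. NFKBIA rose on average (0.33 ± 0.07, adjusted p = 0.00117), although sg3 library 4 lay below control library 3.

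**Figure D4:**
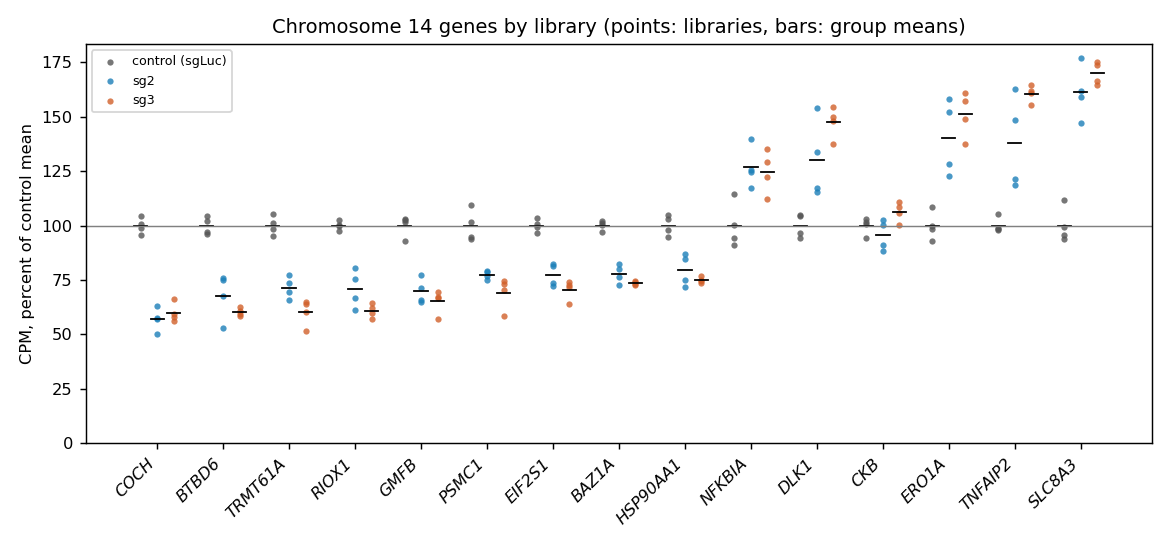
CPM as percent of the control mean (y axis, from 0) of 15 chromosome 14 genes (x axis) in 12 libraries. Points are libraries coloured by group and bars are means of 4 libraries. The 9 genes on the left, COCH to HSP90AA1, fell without overlap of the groups, CKB did not pass the test, and the other 5 rose.

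Of 28 autophagy, lysosome and endoplasmic reticulum genes, 15 (53.6%) fell and 4 (14.3%) rose in the average (median -0.11). These shares are near the 44.8% and 13.6% of all 375 genes. ERO1A, the oxidase that drives disulfide formation in the endoplasmic reticulum, measured 25.1, 27.1, 26.7 and 29.4 CPM in control, 34.7, 33.3, 42.9 and 41.2 in sg2 and 40.3, 43.6, 42.6 and 37.3 in sg3 libraries. ERO1A was higher in every knockout library (0.54 ± 0.07, adjusted p = 1.13e-05). ZFYVE1, a phosphoinositide-binding protein of omegasomes, rose from 15.7 ± 0.50 CPM to 22.02 ± 1.90 with sg3, while with sg2 it measured 18.8 ± 2.50 (0.23, adjusted p = 0.0589). GALC, the lysosomal galactosylceramidase, rose by 0.15 in the average (adjusted p = 0.00374). SPTLC2, a subunit of serine palmitoyltransferase and the most abundant gene of the list, measured 286 ± 4.95, 297 ± 10.0 and 297 ± 7.56 CPM and was not called (0.05, adjusted p = 0.167).

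Of 31 mitochondrial and metabolic enzymes, 11 (35.5%) fell and 5 (16.1%) rose in the average (median -0.08). ALDH6A1, a dehydrogenase of valine catabolism, rose from 17.8 ± 1.65 CPM to 21.6 ± 0.88 in sg2 and 25.4 ± 0.96 in sg3 libraries (0.41 ± 0.06, adjusted p = 3.28e-05). ARG2, the mitochondrial arginase, rose by 0.51 (adjusted p = 0.00125), but it overlaps VTI1B and GPHN in position and its counts may include their reads. CKB, a cytosolic creatine kinase, measured 346 ± 13.1 CPM in control, 331 ± 24.0 in sg2 and 368 ± 15.5 in sg3 libraries and was not called in the average (0.01, adjusted p = 0.874).

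A list headed hematopoietic and red cell genes, which also held more general genes such as KLC1, ESR2 and NUMB, showed no common direction. In the average 6 of its 19 genes fell and 6 rose (median -0.02). These are 31.6% each, beside 22.3% and 21.6% of all genes tested. With such a mixed list, this does not describe the red cell program. SLC7A8, an amino acid transporter, fell by 0.48 (adjusted p = 0.00113) from 6.58 ± 0.31 CPM to 4.27 ± 0.94 and 5.10 ± 0.25. The actin crosslinker ACTN1 fell slightly from 266 ± 4.42 CPM to 241 ± 5.00 and 247 ± 11.7 (-0.13, adjusted p = 0.00494), and EVL, an Ena/VASP protein, rose slightly (0.15, adjusted p = 0.00927). DLK1, a paternally expressed Notch-like ligand and the only gene of its imprinted domain that met the CPM rule, measured 18.9, 18.9, 17.1 and 17.4 CPM in control, 24.2, 20.8, 21.2 and 27.8 in sg2 and 24.9, 27.9, 26.8 and 27.1 in sg3 libraries. It was higher in all 8 knockout libraries (0.45 ± 0.07, adjusted p = 8.48e-05). RNASE1, the only member of the RNase A family that met the CPM rule, rose by 0.42 in the average (adjusted p = 0.0109) but was not called with sg2 alone (0.31, adjusted p = 0.121), and the call of the average was lost without sg2 replicates 1 and 2 together (0.33, adjusted p = 0.0695). None of the 11 SERPINA genes met the rule, and 4 of them are also listed on another contig. Of 19 listed immune receptor and granule genes the table held 5 (ADAM6, GZMB, GZMH, CTSG and CMA1), none of which met the rule. No immunoglobulin or T cell receptor gene was among these 5, so their expression is not described here.

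The lower medians were seen at most expression levels, in both strands and at all gene lengths. When genes of all chromosomes were divided by control CPM into 3 equal parts, the median of chromosome 14 genes in the average was -0.01 in the lowest part (97 genes), -0.13 in the middle part (160 genes) and -0.14 in the highest part (118 genes). On the other chromosomes the medians were 0.08, -0.01 and -0.04, so the gap was about 0.1 in each part and low genes were higher everywhere. In the highest part, 61.9% of chromosome 14 genes fell, against 34.1% elsewhere. By exon length the medians were -0.13, -0.12 and -0.12 from the shortest to the longest part, against -0.01, 0.00 and 0.00 on other chromosomes. Genes on the plus strand and on the minus strand both had a median of -0.12. The 344 protein-coding genes had a median of -0.13, against -0.00 on other chromosomes. The 31 noncoding or unmatched genes had 0.03, against 0.01 elsewhere, and their control library medians alone ran from -0.07 to 0.12. Of these 31 genes 22.6% fell and 12.9% rose, against 13.6% and 16.4% elsewhere.

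Finally, the knockout groups were compared with each other. None of the 375 genes was called between sg3 and sg2 by edgeR, and 53 had an unadjusted p under 0.05. Over all genes tested 0.00714% were called, and 2098 of 13996 had an unadjusted p under 0.05. DESeq2 called 4 of the 375 genes (0.937% of all genes it tested), limma-voom 1 (0.129%) and edgeR without a filter on low counts 13 (1.42%). Without sg2 replicate 4 edgeR called 8 (1.42%), so this count depends on the method and on 1 library. The median difference was -0.01 on the log2 scale, and bin medians ranged from -0.04 to 0.01. The lowest adjusted p, 0.0792, was shared by AP5M1 and FOS, which were picked for these values. AP5M1, a subunit of an adaptor complex of late endosomes, measured 33.5 to 37.5 CPM in sg2 and 29.6 to 30.9 CPM in sg3 libraries. FOS, a subunit of the AP-1 transcription factor, measured 19.8 to 27.4 CPM in sg2 and 29.9 to 35.2 CPM in sg3 libraries, against 23.1 to 26.1 CPM in control. For both genes the ranges of the knockout groups did not overlap.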

How the data were processed

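RNA of 12 HEL-Cas9 cultures was sequenced paired-end and strand-specifically by a service provider. Per the study's methods, trimming used Trimmomatic (0.39) and alignment used STAR (2.7.4a) with hg38. The authors deposited raw counts per gene from featureCounts (2.0.1, options -pB). No strand option is named, so reads of overlapping or antisense genes cannot be told apart. Multi-mapped reads are not mentioned, so genes with processed copies elsewhere, such as HSP90AA1, HNRNPC and RPS29, are less certain. Of the 375 genes, 191 overlap another gene, 101 of them one with at least 10% of their counts. Of 38571 lines, 20 were broken and left out with their 6 genes. The remaining 38551 genes were used.

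The CPM rule used raw library totals, while printed CPM values are scaled by TMM. For 1 gene also placed on another contig, its chromosome 14 positions were used. A total of 366 symbols matched RefSeq. Counts were fitted with edgeR (4.0.16, R 4.3.3), using filterByExpr, TMM and the quasi-likelihood test over 13996 genes with all 12 libraries in 1 model. Benjamini-Hochberg adjusted p under 0.05 was called, and fold changes are log2 with SE. The biological coefficient of variation was 6.24%. The most deeply sequenced library had 7.87 times the counts of the shallowest, which limits low genes such as GPR132. Replicate pairs differed beyond sampling noise (reduced chi-square 1.71 to 12.4), so all were kept.

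Named genes were, in each bin, the gene with the highest control CPM and up to 2 rises and 2 falls called in all 3 comparisons against control, and in each list up to 2 called genes and the most abundant one. A gene that this rule takes is not reported here. The chromosome, its bins and the lists were chosen with earlier results of these data known, and fits were run on simulated data first. Alternatives were DESeq2 (1.42.0), limma-voom (3.58.1), RLE factors, TMM without chromosome 14, other filters, 2 groups in the fit, a replicate block, other bins, protein-coding genes and leaving out libraries. Guide sites were searched in hg38 with up to 4 mismatches next to NGG.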

Additional observations from a re-analysis of the deposited data

Results flagged for a closer look

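Of 210 groups of 4 libraries examined (chromosome, bins and named genes in each group), 9 had 1 library that stood apart from the other 3 by Dixon's criterion, which chance alone flags in about 1 of 20 groups. In control libraries these were the median of the bin of 50 to 60 Mb in replicate 4 (-0.0074, against 0.0018 to 0.0028 in the others), TNFAIP2 in replicate 4 (61.1 CPM, against 56.9 to 57.4), PRPF39 in replicate 3 (35.2 CPM, against 37.0 to 37.3) and GMFB in replicate 2 (67.7 CPM, against 74.2 to 75.1). In sg2 libraries they were the median of the bin of 40 to 50 Mb in replicate 4 (-0.25, against -0.10 to -0.08), MAP3K9 in replicate 3 (4.38 CPM, against 2.58 to 2.81), GPR135 in replicate 3 (4.58 CPM, against 3.09 to 3.16), PSMC6 in replicate 3 (71.8 CPM, against 80.4 to 82.0) and RAD51B in replicate 4 (7.59 CPM, against 6.69 to 6.78). None was in an sg3 library.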

How the results depend on the processing

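The calls against control stayed within 1.5 times their count and the chromosome medians within 1 SD of the library medians under each alternative run, apart from leaving out the 173 genes on the lists, which left 202 genes. It was chosen after seeing the data and gave 65 calls (32.2%) with sg2, 105 (52.0%) with sg3 and 104 (51.5%) in the average, with medians of -0.089, -0.11 and -0.10. Leaving out 1 library gave 113 to 154 calls with sg2, 185 to 221 with sg3 and 181 to 218 in the average, and medians from -0.11 to -0.09, -0.13 to -0.12 and -0.13 to -0.11. Without the 101 genes that overlap one with at least 10% of their counts, also chosen after seeing the data, calls were 116, 161 and 161 of 274 genes. Without the 5 genes at 1 CPM in knockout libraries only, chosen likewise, they were 148, 216 and 215 of 370. Between sg3 and sg2, calls were 0 with all libraries, 0 to 8 with 1 library left out (8 without sg2 replicate 4), 13 without a filter, 4 with DESeq2, 1 with limma-voom and 1 with the replicate block, beside 1, 0 to 201, 367, 121, 18 and 25 over all genes tested, and the cause was not tested.

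With bins of 20 Mb the lowest bin median was -0.11 with sg2 and -0.14 in the average, and the highest -0.10 with sg3 and -0.11 in the average. With bins of 5 Mb the lowest was -0.25 with sg3 and -0.095 between the guides. Of 797 bin values against control, 794 were below 0. The other 3 were means over genes of the bin of 80 to 90 Mb. Among named genes, 16 of 48 called with sg2, 6 of 54 with sg3 and 4 of 53 in the average lost their call in at least 1 alternative, and 0 called values changed sign. EVL lost its sg2 call in 16. PLD4, ZFP36L1, ARG2 and BRMS1L also lost their sg2 calls, and ACTN1 its sg3 call, when 1 library was left out. Their calls in the average held. Samples with the same replicate number did not deviate together (correlations from -0.17 to 0.18). Those of different number reached -0.22 (control 4 with sg3 2) and 0.21 (control 3 with sg3 2). Reduced chi-square was 2.09 and 3.78 for control libraries 1 with 3 and 2 with 4, against 6.07 to 7.29 across these pairs. For libraries 1 with 2 and 3 with 4 it was 1.71 and 3.98 in sg3 (6.27 to 12.4 across). In sg2 it was 2.89 and 2.46 (3.79 to 7.02 across). A block by replicate number does not model this, and its origin was not tested. That block changed none of the counts against control by over 1.5 times. The average could not be fitted with 2 groups. Depth limited mostly genes near 1 CPM.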
